A study of Homo sapiens with 12 samples.

Results

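The genes described here are 10 genes of the smooth muscle contractile apparatus, namely ACTA2, ACTG2, TAGLN, CNN1, LMOD1, SMTN, TPM2, MYL9, MYH11 and MYLK. They were taken by gene symbol from the 61806 genes of the deposited table, and each symbol matched 1 gene. The rule itself used no measured value, but the 10 genes were chosen with earlier results of these data known. All 10 passed the filter on low counts, which kept 19505 genes for testing. The cells were wild type H1 cells, a line of human embryonic stem cells, and in every group they were first brought to mesendoderm with CHIR99021, an activator of WNT signaling. The methods of the paper then give insulin on Day 1. NP-IWP2 cells then stayed in static culture with the WNT inhibitor IWP2. The other treatments included passaging on Day 2, after which P-DF cells differentiated spontaneously with no IWP2 and P-IWP2 cells received IWP2. P-DF cells thus differ from NP-IWP2 cells both in passaging and in IWP2, and comparing them cannot tell these apart. The paper also reports the use of Y27632, an inhibitor of the kinase ROCK, in its later differentiation experiments. Its methods describe a replating medium with or without Y27632. Which of these libraries received it is not stated there, so passaging and Y27632 cannot be told apart either. RNA was sequenced from 2 libraries of each of the 3 treatments on Day 12 and on Day 16, 12 libraries in all, with 14885589 to 19176239 counts per library. All cells came from this 1 line, and nothing in the sources used here says that the 2 libraries of a group were separate cultures, so the p-values measure the spread between these libraries.

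Of 8 genes listed as pluripotency markers, POU5F1 and NANOG, the core factors of stem cells, stood at no more than 0.05 FPKM in any library. Others of the list were detected, TDGF1 at 0.21 to 28.1 and LIN28A at 0.06 to 18.7 FPKM, and 2 to 5 of the 8 reached 1 FPKM in a library. TNNT2, cardiac troponin T, stood at 74.8 to 145 FPKM. FPKM is the count of a gene scaled by its exon length and by the total of the library. MYH11, the smooth muscle myosin heavy chain and the most restricted marker among the 10 genes, did not exceed 1.85 FPKM, and the genes are described here without assigning them to a cell type. Because the RNA is from whole cultures, fewer cells of a type and less RNA per cell cannot be told apart.

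One library stood apart from its partner before any comparison was made. In the Day 12 P-IWP2 pair, 68.1% of genes differed between the 2 libraries by more than counting error, against 20.8% to 48.2% in the other 5 pairs. Replicate 5 of that pair had summed FPKM of 768 over 11 fibroblast genes and 2698 over 16 cardiomyocyte genes, where replicate 6 had 48.5 and 6744. Whether this library carries the right label could not be settled from the files, which leaves every Day 12 P-IWP2 value uncertain. Calls that rest on it are given with and without it below. Since all 12 libraries share 1 estimate of spread, leaving it out also changed the p-values of comparisons in which it has no part.

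Smooth muscle contracts without sarcomeres. Actin filaments made of the ACTA2 and ACTG2 isoforms slide along smooth muscle myosin, and contraction starts when MYLK, the myosin light chain kinase, phosphorylates the regulatory light chain MYL9. CNN1, TAGLN, SMTN, LMOD1 and TPM2 bind, stabilize or regulate the actin filament. Most of these genes are targets of serum response factor (SRF), which binds the CArG box, CC followed by A or T bases and GG, and is driven by its cofactors MYOCD, MRTFA and MRTFB. Several of them, ACTA2, TAGLN and CNN1 among them, are also transcribed for a time in the embryonic heart muscle.

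RefSeq promoter windows on GRCh38.p14, from 250 bases before to 50 bases after an annotated start, matched 7 of the 10 genes with 12 windows. TAGLN, MYH11 and MYL9 had no entry. A CArG box with no mismatch, searched on both strands, lay in 3 of the 12 windows (25.0%) and in 1.29% of all 35116 promoter windows of this length. A CArG box with 1 G or C in its core lay in 1 of the 12 windows and in 6.94% of all windows. The 3 sequences below were picked among the windows with a match. ACTG2 and ACTA2 had the largest falls among the 10 genes and SMTN rose over time in both passaged treatments. CNN1 also rose over time in both, but its window held neither kind of match. Neither did the windows of LMOD1 and TPM2, the other window of ACTA2 or the other windows of SMTN. Capitals mark the CArG boxes, with no mismatch in ACTG2 and SMTN and with 1 G or C in the core in ACTA2, and all 3 windows read 5′ to 3′ on the strand of the gene.
ACTG2, chr2:73892758-73893057, plus strand: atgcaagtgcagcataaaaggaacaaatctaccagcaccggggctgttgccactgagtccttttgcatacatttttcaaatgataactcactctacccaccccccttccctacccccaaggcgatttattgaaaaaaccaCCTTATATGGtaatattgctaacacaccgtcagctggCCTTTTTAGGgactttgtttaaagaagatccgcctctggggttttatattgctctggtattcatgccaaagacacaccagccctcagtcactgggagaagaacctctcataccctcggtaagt
ACTA2, chr10:88952724-88953023, minus strand: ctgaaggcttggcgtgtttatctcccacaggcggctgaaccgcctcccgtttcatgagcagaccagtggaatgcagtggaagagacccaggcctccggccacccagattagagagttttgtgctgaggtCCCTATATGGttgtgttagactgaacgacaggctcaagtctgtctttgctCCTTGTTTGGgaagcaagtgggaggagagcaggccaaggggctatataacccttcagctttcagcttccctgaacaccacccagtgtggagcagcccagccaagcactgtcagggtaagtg
SMTN, chr22:31084746-31085045, plus strand: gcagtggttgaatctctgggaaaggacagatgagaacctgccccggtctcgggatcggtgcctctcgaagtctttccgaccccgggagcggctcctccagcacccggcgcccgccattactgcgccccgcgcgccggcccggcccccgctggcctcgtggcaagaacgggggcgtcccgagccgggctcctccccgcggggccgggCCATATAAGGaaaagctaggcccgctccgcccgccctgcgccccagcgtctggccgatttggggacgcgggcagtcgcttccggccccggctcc
In ACTG2 the CArG boxes begin 110 and 73 bases before the start, and in SMTN the box begins 44 bases before it and overlaps a TATAA motif. In ACTA2 the near matches begin 121 and 71 bases before the start. All 3 windows lie within their annotated genes. The ACTA2 start lies 38566 bases inside its gene, with 43 of the 300 bases of the window in exons, and the ACTG2 start 694 bases inside, with 108 in exons. The SMTN start lies 20891 bases inside its gene, with 50 exonic bases. MYLK was the third gene with a CArG box, in a window entirely within its gene, 94 bases before an internal start. These matches describe the letters only.

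Compared per length of exon, the 10 genes spanned levels from trace to abundant. MYL9 was the highest with a median of 236 FPKM over the 12 libraries, followed by ACTA2 with 127 and TPM2 with 109. CNN1 with 43.7, TAGLN with 39.4 and LMOD1 with 17.8 FPKM were intermediate, and the ranges of ACTA2, TPM2, CNN1 and TAGLN overlapped, so that their order differed between libraries. SMTN had a median of 2.19 FPKM. MYLK and ACTG2 with 0.21 each and MYH11 with 0.205 FPKM were the lowest. ACTG2 and MYH11 had as few as 2 and 10 counts in a library, while MYLK had at least 53. Exon length is the union over isoforms, 31537 bases in MYLK and 17729 in MYH11, so that the FPKM of these genes understates a shorter transcript.

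**Figure D1:**
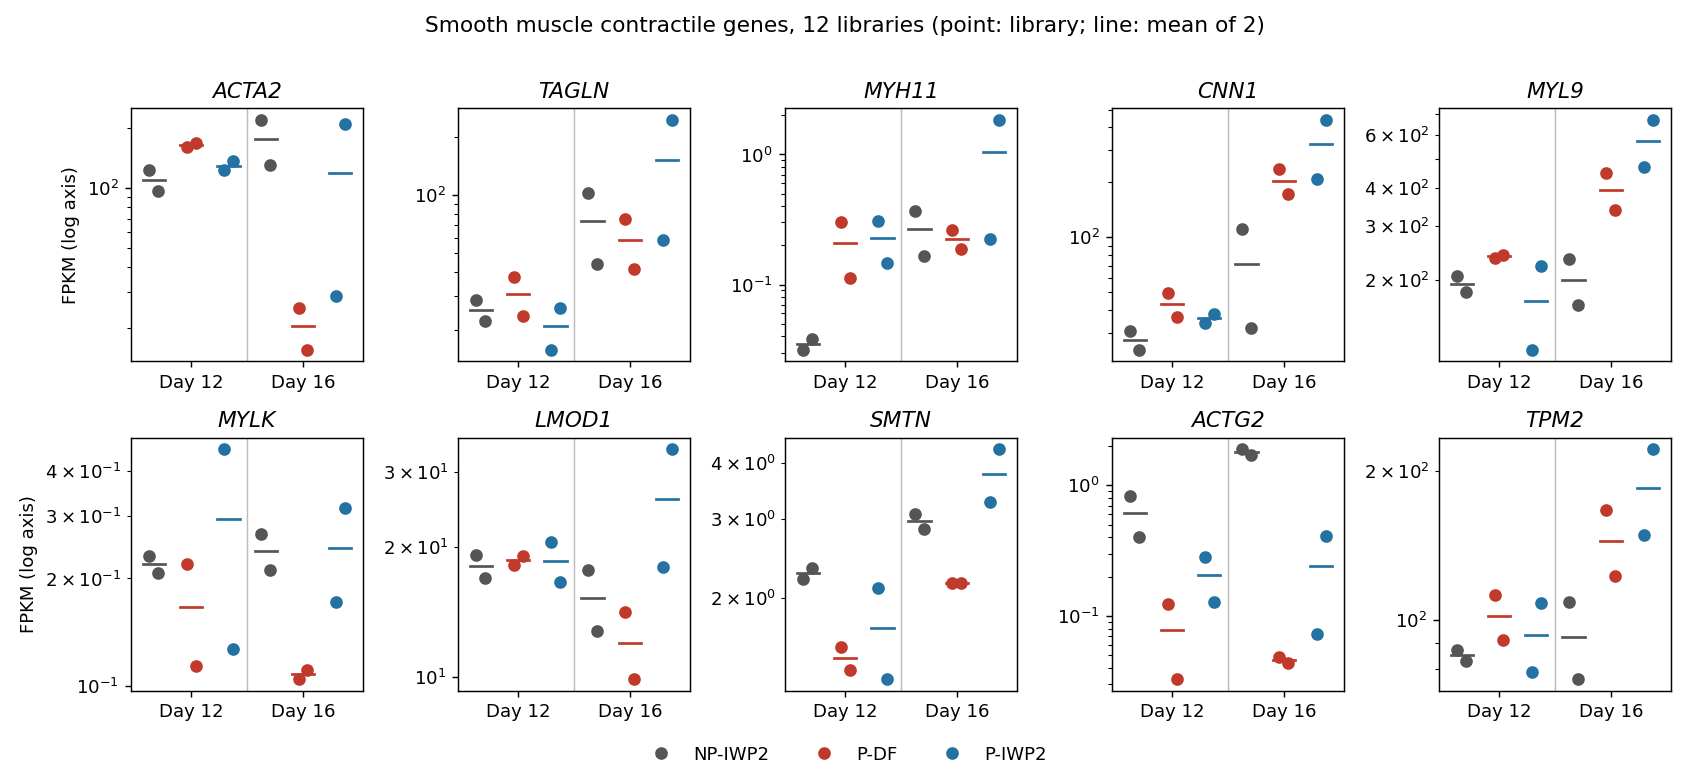
FPKM of the 10 genes (vertical log axes, a separate scale for each gene) in the 12 libraries, by day and treatment, with a point for each library and a line at the mean of 2. On Day 16 the ACTA2 points of P-DF lie at 15.5 and 25.1 FPKM and those of P-IWP2 at 28.7 and 207, while CNN1, MYL9 and TPM2 of both passaged treatments lie above both static libraries.

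On Day 16 the calls among the 10 genes went in different directions. In P-DF against NP-IWP2 cells on Day 16, 2 of the 10 genes passed the test, ACTA2 and ACTG2, both lower, where 15.3% of all tested genes were called (9.86% lower). In P-IWP2 against NP-IWP2 cells, CNN1, MYL9, LMOD1 and TPM2 were higher and ACTG2 was lower, 5 of 10 genes where 17.1% of tested genes were called (7.15% higher and 9.95% lower). The test was edgeR's quasi-likelihood test, and a gene was called at a Benjamini-Hochberg adjusted p under 0.05 over all tested genes. The median log2 fold change of the 10 genes was -0.12 for P-DF and 1.16 for P-IWP2, beside -0.02 and -0.03 over all tested genes. Both comparisons share the static libraries. In FPKM, 3 of the 10 genes for P-DF and 5 for P-IWP2 had both libraries above both static ones, where 18.8% and 16.2% of tested genes did, and 4 and 1 had both below, where 50.2% and 50.7% did. FPKM and edgeR's TMM scaling thus differ: with library totals in place of TMM, 558 genes were called higher and 2870 lower in P-DF cells, beside 1051 and 1924, and 733 and 3422 in P-IWP2 cells, beside 1395 and 1941. On Day 12 none of the 10 genes was called by edgeR in P-DF cells, where 4.01% of tested genes were called, or in P-IWP2 cells, where 1.66% were. The counts at an unadjusted p under 0.05 were 3 and 1, and DESeq2 called 2 genes (MYH11 and ACTG2) for P-DF and 0 for P-IWP2. The shares of all tested genes by these rules are not given here, so no excess among the 10 genes can be read from the counts. Without the Day 12 P-IWP2 replicate 5, edgeR called 2 and 1 of the 10 genes on Day 12, where 23.0% and 16.0% of tested genes were called, and 5 and 7 on Day 16, where 34.1% and 36.4% were.

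**Figure D2:**
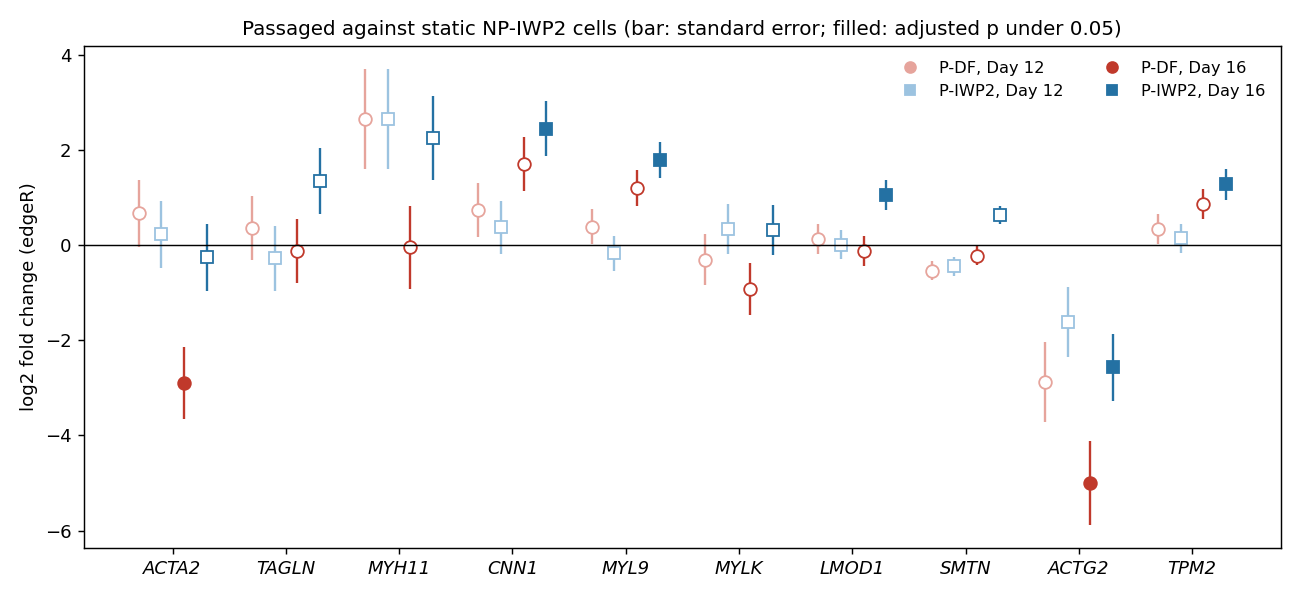
Log2 fold change of each gene in P-DF (circles) and P-IWP2 (squares) against NP-IWP2 cells on Day 12 (pale) and Day 16 (dark), with the standard error as a bar and filled symbols for an adjusted p under 0.05. The filled symbols are ACTA2 in P-DF at -2.89, ACTG2 at -5.00 and -2.57, and CNN1, MYL9, LMOD1 and TPM2 in P-IWP2 between 1.05 and 2.45, all on Day 16.

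ACTA2, smooth muscle alpha-actin (chr10:88935074-88991339, minus strand), was the second most abundant of the 10 genes and had one of the 2 largest falls. On Day 12 it stood at 122 and 96.2 FPKM in NP-IWP2, 161 and 167 in P-DF, and 123 and 136 in P-IWP2 libraries. On Day 16 it stood at 219 and 131 FPKM in NP-IWP2, 25.1 and 15.5 in P-DF, and 28.7 and 207 in P-IWP2 libraries. Both P-DF libraries of Day 16 lay below every other library, and P-IWP2 replicate 6 lay within the static range while replicate 5 lay next to the P-DF libraries. In P-DF against NP-IWP2 cells on Day 16 the log2 fold change was -2.89 (SE 0.756, edgeR adjusted p = 0.0328), or 7.43-fold lower. The direction held in all 12 fits that each left out 1 library (-3.27 to -2.40), but the call held in only 4, and was lost without any 1 of the 8 NP-IWP2 and P-DF libraries. Between Day 12 and Day 16, ACTA2 fell in P-DF cells by 2.76 on the log2 scale (SE 0.752, edgeR adjusted p = 0.0413), a call that also held in 4 of the 12 fits and was lost without any 1 of the same 8 libraries, and its value in NP-IWP2 cells was 0.81 (edgeR adjusted p = 0.568). The interaction of treatment and day for P-DF against NP-IWP2 cells, which differ in passaging and in IWP2, was -3.57 (SE 1.03, edgeR adjusted p = 0.186). In P-IWP2 against NP-IWP2 cells on Day 16 the value was -0.26 (edgeR adjusted p = 0.83), but it was -2.40 (edgeR adjusted p = 0.0251) without replicate 6 and 0.57 (0.351) without replicate 5.

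ACTA2 can also be set against the other muscle actins, ACTC1 of the heart, ACTA1 of skeletal muscle and ACTG2. Their transcripts are similar in the coding part, so that some reads could be split between them by the alignment. ACTA2 made up 4.87% to 9.82% of the summed FPKM of the 4 muscle actins in the 6 libraries of Day 12 and 4.94% and 6.71% in the static libraries of Day 16. On that day it made up 0.437% and 0.362% in the P-DF libraries, and 0.672% and 2.32% in the P-IWP2 ones. All 4 passaged libraries of Day 16 lay below all other libraries in this share. In P-IWP2 replicate 6 the share was low beside an ACTA2 level within the static range, since ACTC1 stood at 7794 FPKM there, against 4104 and 1807 in the static libraries of that day. With 2 libraries against 2, a two-sided exact permutation test cannot give a p below 0.333, which both Day 16 comparisons reached. ACTC1 made up 87.2% to 98.1% of the muscle actin FPKM throughout. In P-IWP2 replicate 6 of Day 16, ACTA1 was higher beside ACTA2, at 941 FPKM where replicate 5 had 142.

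**Figure D3:**
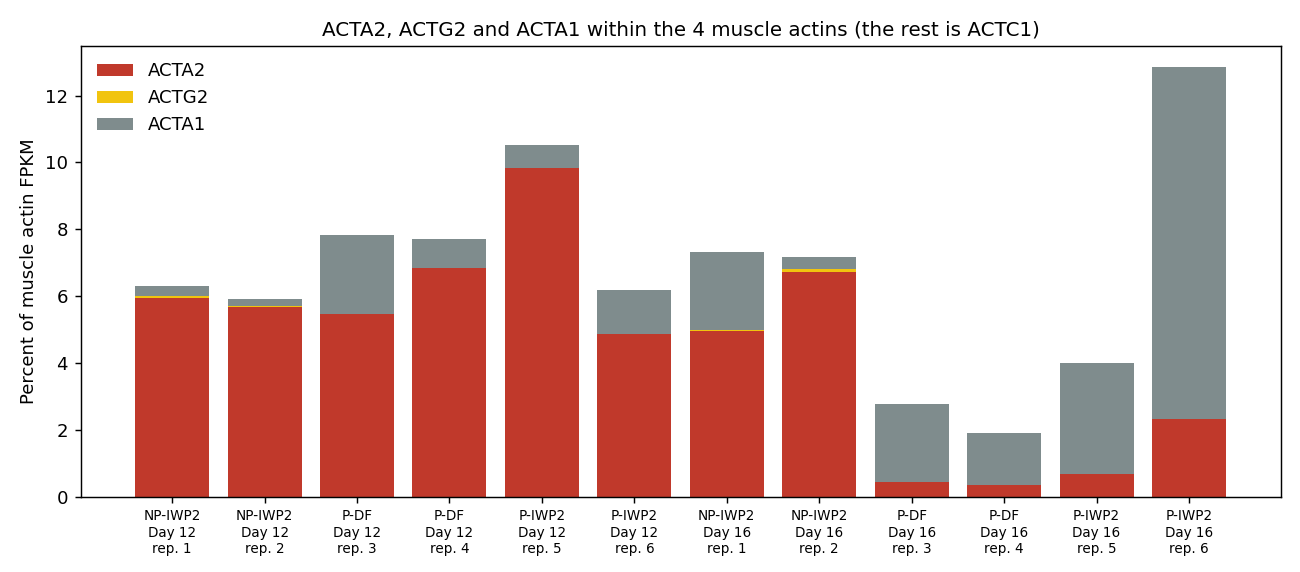
Percent of the summed FPKM of the 4 muscle actins (vertical axis, from 0) that came from ACTA2, ACTG2 and ACTA1 in each of the 12 libraries, the rest being ACTC1. The ACTA2 part is 4.87% or more in the 8 libraries on the left and 2.32% or less in the 4 passaged libraries of Day 16, and ACTA1 reaches 10.5% in the P-IWP2 replicate 6 of Day 16.

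ACTG2, the enteric smooth muscle actin (chr2:73892314-73919865, plus strand), had the largest fall in P-DF cells at a far lower level. It had 56 and 25 counts in the NP-IWP2 libraries of Day 12, 7 and 2 in P-DF, and 17 and 8 in P-IWP2. On Day 16 it had 137 and 104 counts in NP-IWP2, 3 and 3 in P-DF, and 5 and 30 in P-IWP2 libraries. The static libraries lay above all passaged libraries of the same day, on Day 12 as on Day 16. In P-DF cells on Day 16 the fitted log2 fold change was -5.00 (SE 0.881, edgeR adjusted p = 0.00686), and the call was lost without either P-DF library of that day. Because these libraries held 3 counts each, the fitted value depends on the prior count of the fit. The summed counts of 241 and 6, scaled to the library totals, gave a ratio of 39.0 with an exact 95% interval of 17.6 to 107 that covers counting error only. In P-IWP2 cells the log2 fold change was -2.57 (SE 0.71, edgeR adjusted p = 0.0372), and it was -4.38 (0.0275) without replicate 6 and -1.79 (0.121) without replicate 5. That call held in 5 of the 12 fits that left out 1 library, and was lost without any 1 of the NP-IWP2 libraries, either Day 16 P-DF library or P-IWP2 replicate 5 of Day 16. On Day 12 the value was -2.87 for P-DF (edgeR adjusted p = 0.0916, or 0.0145 without the Day 12 P-IWP2 replicate 5) and -1.62 for P-IWP2 (edgeR adjusted p = 0.45, or -2.17 and 0.117 without that library).

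CNN1, calponin, which binds actin and holds back the myosin ATPase (chr19:11538767-11550323, plus strand), moved the other way. It stood at 30.6 and 24.3 FPKM in NP-IWP2, 49.4 and 36.7 in P-DF, and 33.9 and 38.0 in P-IWP2 libraries on Day 12. The Day 16 values were 111 and 31.8 FPKM in NP-IWP2, 237 and 172 in P-DF, and 207 and 439.5 in P-IWP2 libraries. All 4 passaged libraries lay above both static libraries on each day, and on Day 16 the static libraries themselves differed by 1.91 on the log2 scale after TMM scaling. In P-IWP2 against NP-IWP2 cells on Day 16 the log2 fold change was 2.45 (SE 0.582, edgeR adjusted p = 0.0218), or 5.45-fold, and the call was lost without NP-IWP2 replicate 2 or P-IWP2 replicate 6 of that day. In P-DF cells it was 1.72 (SE 0.568, edgeR adjusted p = 0.0719, or 0.0153 without the Day 12 P-IWP2 replicate 5). From Day 12 to Day 16 CNN1 rose by 3.59 in P-IWP2 (SE 0.612, edgeR adjusted p = 0.00489) and by 2.50 for P-DF (SE 0.584, edgeR adjusted p = 0.0245). The rise in P-IWP2 cells kept its call in all 12 fits that left out 1 library but not in a model of that treatment alone (0.13), and the rise in P-DF cells in 8, being lost without any 1 of the 4 P-DF libraries. Without the Day 12 P-IWP2 replicate 5 the rise in P-IWP2 cells was 3.41. In NP-IWP2 cells the same difference was 1.52 (edgeR adjusted p = 0.186). On Day 12 CNN1 made up 16.9% of the summed FPKM of the 3 calponins in NP-IWP2 cells (mean, SD 2.45, n = 2), 27.3% for P-DF (SD 3.34) and 23.0% for P-IWP2 (SD 2.85). The Day 16 shares were 28.2% (SD 16.7), 66.8% (SD 4.85) and 72.5% (SD 7.97) in the same order.

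TPM2, beta-tropomyosin, which lies along the actin filament (chr9:35681992-35690056, minus strand), changed less and more evenly. Its Day 12 values were 87.3 and 82.9 FPKM in NP-IWP2, 112 and 91.4 in P-DF, and 78.7 and 109 in P-IWP2 libraries. Its Day 16 values were 109 and 76.2 FPKM in NP-IWP2, 167 and 123 in P-DF, and 149 and 221 in P-IWP2 libraries. The Day 16 passaged libraries all lay above the static ones. In P-IWP2 against NP-IWP2 cells on Day 16 the log2 fold change was 1.28 (SE 0.319, edgeR adjusted p = 0.0262), and the call was lost without NP-IWP2 replicate 2 or P-IWP2 replicate 6. In P-DF cells it was 0.87 (SE 0.317, edgeR adjusted p = 0.0959, or 0.0131 without the Day 12 P-IWP2 replicate 5). TPM2 rose by 1.38 from Day 12 to Day 16 in P-IWP2 cells (SE 0.32, edgeR adjusted p = 0.0153), a call lost without P-IWP2 replicate 6 of Day 16. Without the Day 12 P-IWP2 replicate 5 it was 1.08 (edgeR adjusted p = 0.021).

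TAGLN, transgelin or SM22, an actin binding protein of early smooth muscle (chr11:117199370-117207464, plus strand), was called by edgeR with all 12 libraries only over time, in P-IWP2 cells. It stood at 28.4 and 22.3 FPKM in NP-IWP2, 37.4 and 23.6 in P-DF, and 15.7 and 25.8 in P-IWP2 libraries on Day 12. By Day 16 the values were 103 and 43.8 FPKM in NP-IWP2, 75.3 and 41.4 in P-DF, and 58.5 and 246 in P-IWP2 libraries. Every Day 16 library lay above every Day 12 library, and within Day 16 the groups overlapped. The log2 fold change from Day 12 to Day 16 was 3.29 in P-IWP2 cells (SE 0.739, edgeR adjusted p = 0.0135), 1.19 in P-DF (0.281) and 1.66 in NP-IWP2 cells (0.228). The call in P-IWP2 cells was lost without replicate 6 of Day 16, at 1.81 (0.105), and was 2.90 (0.0188) without the Day 12 replicate 5. Of the transgelin FPKM, TAGLN2 made up 36.1% in static cells on Day 12 (SD 4.68, n = 2) and 4.51% in P-DF cells (SD 0.258). P-IWP2 replicate 5 of Day 12 had 26.5 FPKM of TAGLN2 where replicate 6 had 1.71.

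LMOD1, leiomodin 1, which nucleates smooth muscle actin filaments (chr1:201896456-201946588, minus strand), was nearly level on Day 12. All 6 libraries of that day lay between 16.6 and 20.6 FPKM. On Day 16 it stood at 17.7 and 12.8 FPKM in NP-IWP2, 14.2 and 9.88 in P-DF, and 18.0 and 33.8 in P-IWP2 libraries. Both P-IWP2 libraries lay above the static ones, the lower of them by a small margin. The log2 fold change of P-IWP2 against NP-IWP2 cells was 1.05 (SE 0.313, edgeR adjusted p = 0.0481), and it held in 3 of the 12 fits that left out 1 library. It was lost without any 1 of the NP-IWP2 or P-DF libraries or without P-IWP2 replicate 6 of Day 16, at 0.45 (0.328) in the last case. It was also lost with library totals in place of TMM, at 0.76, and with limma on FPKM, at 0.68. LMOD2, the leiomodin of heart muscle, stood at 2.77 to 8.10 FPKM in 5 of the 6 Day 12 libraries and at 0.57 in P-IWP2 replicate 5, and at 149 to 186 FPKM in the passaged libraries of Day 16. The static libraries of Day 16 had 46.1 and 18.7 FPKM of LMOD2. Of the leiomodin FPKM on Day 12, LMOD1 made up 84.1% in static cells (SD 1.69, n = 2), 68.9% for P-DF (SD 2.26) and 80.9% for P-IWP2 (SD 22.1). The Day 16 shares were 33.8% (SD 9.11), 6.49% (SD 0.88) and 12.3% (SD 4.00) in the same order, so that the share was lower on Day 16 in static cells too.

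SMTN, smoothelin (chr22:31064105-31104757, plus strand), had the smallest errors of the 10 genes. Its Day 12 values were 2.21 and 2.34 FPKM in NP-IWP2, 1.56 and 1.39 in P-DF, and 2.11 and 1.32 in P-IWP2 libraries. On Day 16 they were 3.09 and 2.85 FPKM in NP-IWP2, 2.16 and 2.17 in P-DF, and 3.28 and 4.29 in P-IWP2 libraries. The libraries of P-DF lay below the static ones on each day, while the P-IWP2 libraries lay below them on Day 12 and above them on Day 16. From Day 12 to Day 16 SMTN rose by 1.58 in P-IWP2 (SE 0.204, edgeR adjusted p = 0.00171) and by 0.81 in P-DF cells (SE 0.204, edgeR adjusted p = 0.0314), and in NP-IWP2 cells the value was 0.50 (edgeR adjusted p = 0.211). The call in P-IWP2 cells held in all 12 fits that left out 1 library (1.82 without the Day 12 replicate 5), and the call in P-DF cells in 6, being lost without any 1 of the P-DF libraries or of the Day 12 NP-IWP2 libraries. The call in P-DF cells was also lost with library totals in place of TMM (0.55) and with limma on FPKM (0.36), and the call in P-IWP2 cells (edgeR adjusted p = 0.153) in a model of that treatment alone. The interaction of passaging and day in P-IWP2 was 1.08 (SE 0.283, edgeR adjusted p = 0.0836, or 0.00802 without the Day 12 P-IWP2 replicate 5). On Day 16, P-IWP2 exceeded P-DF cells by 0.86 (SE 0.2, edgeR adjusted p = 0.384, or 0.0168 without that library).

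MYL9, the regulatory light chain of smooth muscle and non-muscle myosin (chr20:36541497-36551447, plus strand), was the most abundant of the 10 genes. It stood at 206 and 183 FPKM in NP-IWP2, 236 and 242 in P-DF, and 118 and 223 in P-IWP2 libraries on Day 12. On Day 16 it stood at 235 and 165 FPKM in NP-IWP2, 449 and 339 in P-DF, and 470 and 671 in P-IWP2 libraries, and all 4 passaged libraries lay above both static ones. The log2 fold change against NP-IWP2 on Day 16 was 1.79 in P-IWP2 cells (SE 0.378, edgeR adjusted p = 0.0137), or 3.46-fold, and 1.20 in P-DF cells (SE 0.372, edgeR adjusted p = 0.0583, or 0.00115 without the Day 12 P-IWP2 replicate 5). The call in P-IWP2 cells was lost without NP-IWP2 replicate 2 or P-IWP2 replicate 6 of Day 16. Over time MYL9 rose by 2.12 in P-IWP2 cells (SE 0.382, edgeR adjusted p = 0.00586), which held in all 12 fits that left out 1 library, was 1.66 without the Day 12 replicate 5, and lost its call (0.194) in a model of the P-IWP2 libraries alone. The values were 0.98 in P-DF (edgeR adjusted p = 0.113) and 0.16 in NP-IWP2 cells (edgeR adjusted p = 0.847). The interaction of passaging and day in P-IWP2 was 1.96 (SE 0.523, edgeR adjusted p = 0.0847, or 0.0218 without the Day 12 P-IWP2 replicate 5).

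MYH11, the smooth muscle myosin heavy chain (chr16:15703135-15857028, minus strand), had 10 and 11 counts in NP-IWP2, 80 and 32 in P-DF, and 86 and 43 in P-IWP2 libraries on Day 12. On Day 16 it had 125 and 47 counts in NP-IWP2, 75 and 60 in P-DF, and 72 and 628 in P-IWP2 libraries. The static libraries of Day 12 were the lowest, and P-IWP2 replicate 6 of Day 16 was the highest by far. No comparison of MYH11 passed edgeR's test with all 12 libraries. The nearest was Day 16 against Day 12 in P-IWP2 cells at 2.67 (SE 0.893, edgeR adjusted p = 0.0526), which was 3.52 (0.0114) without replicate 5 of Day 16 and 0.36 (0.759) without replicate 6. Without the Day 12 replicate 5 it was 3.16 and passed (edgeR adjusted p = 0.0433). On Day 16 the log2 fold change of P-IWP2 against NP-IWP2 cells was 2.25 (SE 0.874, edgeR adjusted p = 0.106, or 0.0293 without the Day 12 P-IWP2 replicate 5), and it was -0.06 without replicate 6. MYLK, the kinase (chr3:123610049-123884332, minus strand), had 53 to 227 counts in a library and passed no test. Its highest library was P-IWP2 replicate 5 of Day 12 with 227 counts, against 66 in replicate 6, and on Day 16 the P-DF libraries with 53 and 63 counts lay below all others. MYLK3, the kinase of heart muscle, stood at 17.7 to 49.4 FPKM where MYLK stood at 0.10 to 0.46.

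Set side by side over time, the calls differed between the treatments. From Day 12 to Day 16, 5 of the 10 genes rose in P-IWP2 cells (TAGLN, CNN1, MYL9, SMTN and TPM2) where 27.0% of tested genes were called and 12.9% of tested genes were called higher. In a model of the 4 P-IWP2 libraries alone none of these 5 calls held, with edgeR adjusted p from 0.13 (CNN1) to 0.206 (TPM2) and the same fold changes. In P-DF cells CNN1 and SMTN rose and ACTA2 fell, where 13.6% of tested genes were called (6.79% higher and 6.81% lower). In NP-IWP2 cells edgeR called none of the 10, where 1.98% of tested genes were called. By other rules, whose shares over all tested genes are not given here, 5 had an unadjusted p under 0.05 and DESeq2 called 2 (CNN1 and MYH11). The median log2 fold change of the 10 genes was 1.48 in P-IWP2, 0.56 in P-DF and 0.65 in NP-IWP2 cells, beside -0.08, -0.02 and 0.002 over all tested genes. The interactions of treatment and day test whether these differences between treatments exceed their error. P-IWP2 differs from NP-IWP2 in passaging, with any Y27632 given at replating, and P-DF differs from NP-IWP2 in these and IWP2 together. Among the 10 genes edgeR called none, where 0.482% of tested genes were called for P-DF and 1.84% for P-IWP2. Those with an unadjusted p under 0.05 numbered 1 and 5, and DESeq2 called 0 and 2 (MYL9 and SMTN). The shares of all tested genes by these rules are again not given here. Without the Day 12 P-IWP2 replicate 5, edgeR called ACTA2 for P-DF and MYL9 and SMTN for P-IWP2, where 8.09% and 8.33% of tested genes were called, and over time it called 6 of the 10 genes in P-IWP2, 5 in P-DF and 3 in NP-IWP2 cells, where 25.1%, 30.8% and 18.3% were called.

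**Figure D4:**
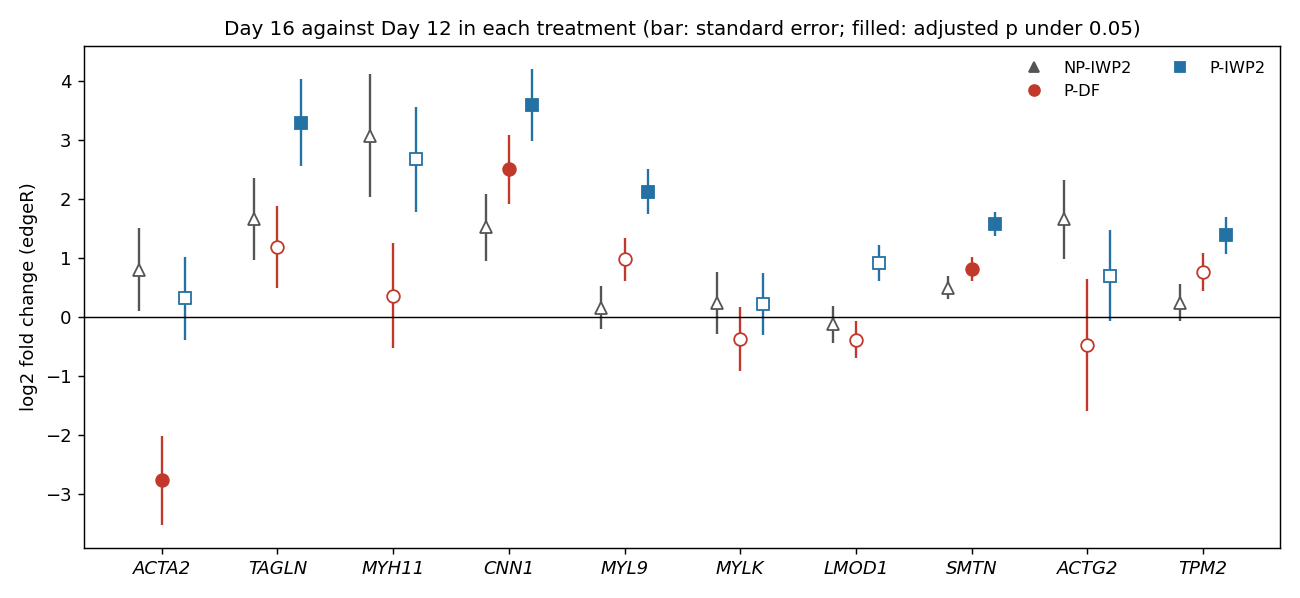
Log2 fold change of each gene from Day 12 to Day 16 in NP-IWP2 (triangles), P-DF (circles) and P-IWP2 cells (squares), with the standard error as a bar and filled symbols for an adjusted p under 0.05. ACTA2 in P-DF lies at -2.76 while CNN1 lies at 1.52, 2.50 and 3.59 in the 3 treatments.

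The 2 passaged treatments were compared with each other to see how they differed with and without IWP2. On Day 12 and on Day 16 edgeR called none of the 10 genes, where 0.0% of tested genes were called on both days. On Day 16 all 10 log2 fold changes of P-IWP2 against P-DF were above 0 (median 1.21, beside 0.00 over all tested genes). Of the 10, 6 had an unadjusted p under 0.05 and DESeq2 called SMTN, but the shares of all tested genes by these rules are not given here. On Day 12 none had an unadjusted p under 0.05 and DESeq2 called 0. Without replicate 6 of P-IWP2 the Day 16 values were smaller in each gene, and those of TAGLN, MYH11, CNN1 and TPM2 came near 0. ACTA2 was 2.63 higher in P-IWP2 (SE 0.749, edgeR adjusted p = 0.424), and it was 0.49 without replicate 6 and 3.46 without replicate 5. TAGLN went from 1.47 to -0.01 and MYH11 from 2.29 to -0.02 without replicate 6, while SMTN went from 0.86 to 0.58, LMOD1 from 1.17 to 0.57 and MYLK from 1.24 to 0.66. Without the Day 12 P-IWP2 replicate 5, LMOD1 and SMTN were called, where 2.58% of tested genes were.

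In 2 of the 6 pairs of libraries, all 10 genes differed in the same direction. In the Day 16 P-IWP2 pair, all 10 genes were higher in replicate 6, where 51.2% of tested genes were, and the median log2 difference was 1.12, beside 0.01 over all tested genes. The differences on this TMM scale ran from 0.51 in SMTN and 0.63 in MYL9 to 2.97 in ACTA2 and 3.15 in MYH11. In the Day 16 NP-IWP2 pair, all 10 genes were higher in replicate 1, where 49.9% of tested genes were, with a median of 0.62 and the widest gap, 1.91, in CNN1. In the Day 16 P-DF pair 8 of 10 were higher in replicate 3 (median 0.43), where 50.8% of tested genes were. In the Day 12 pairs, 8 of 10 were higher in NP-IWP2 replicate 1 (50.1% of tested genes), 8 in P-DF replicate 3 (51.1%) and 5 in P-IWP2 replicate 5 (50.8%). Replicates 5 and 6 of Day 16 P-IWP2 had summed FPKM of 13333 and 13754 over 16 cardiomyocyte genes and of 40.83 and 44.03 over 11 fibroblast genes. Over 20 other genes of the smooth muscle apparatus the sums were 707 and 1045 FPKM, and over 10 mural cell genes 124 and 155. The part of these in the result was not tested.

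**Figure D5:**
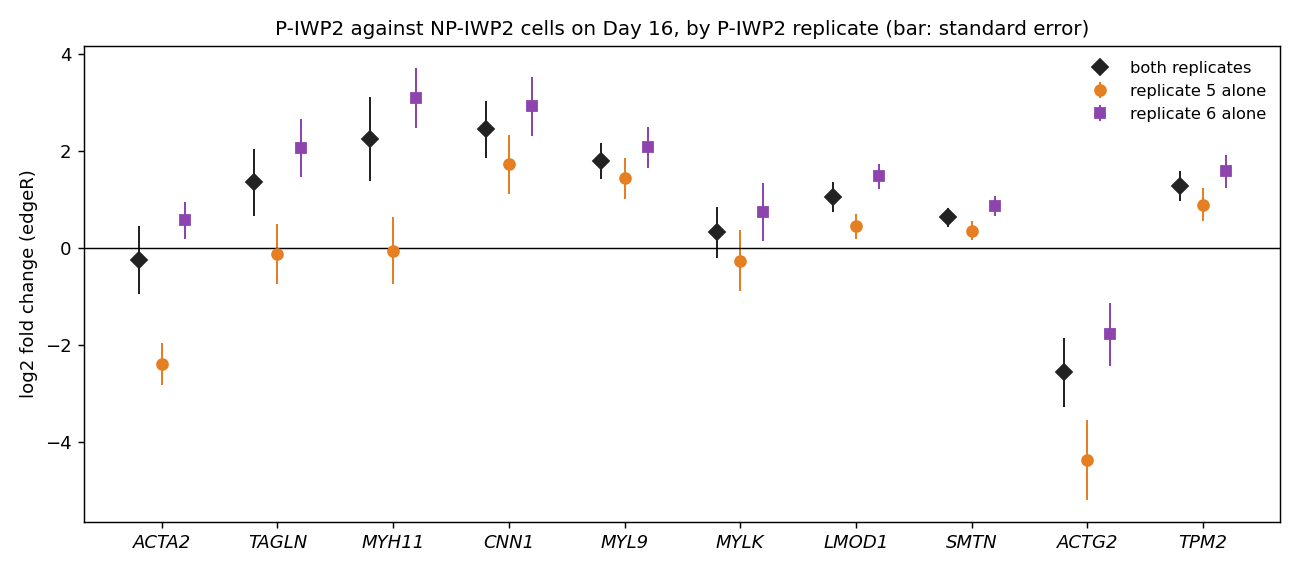
Log2 fold change of P-IWP2 against NP-IWP2 cells on Day 16 with both P-IWP2 replicates (diamonds), with replicate 5 alone (circles) and with replicate 6 alone (squares), with the standard error as a bar. ACTA2 lies at -0.26, -2.40 and 0.57 and MYH11 at 2.25, -0.06 and 3.10, while CNN1 lies at 2.45, 1.72 and 2.93.

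The transcription factor SRF stood at 33.2 to 59.0 FPKM in all 12 libraries, and edgeR called it in none of the comparisons. MYOCD, the cofactor of heart and smooth muscle, stood at 26.0 to 44.1 FPKM, and on Day 16 it was higher than in static cells by 0.65 in P-DF cells (SE 0.161, edgeR adjusted p = 0.0276) and in P-IWP2 cells by 0.77 (SE 0.162, edgeR adjusted p = 0.0137). MRTFA was higher by 0.71 in P-IWP2 cells on Day 16 (SE 0.146, edgeR adjusted p = 0.0121) and its value in P-DF cells was 0.08 (edgeR adjusted p = 0.754). TGFB2, a growth factor that induces smooth muscle genes, was lower in P-DF cells on Day 16 by 2.99 on the log2 scale (edgeR adjusted p = 0.00179) and in P-IWP2 cells by 1.76 (edgeR adjusted p = 0.0129). Of the 24 regulators listed, 2 were higher and 7 lower in P-DF cells on Day 16, and 4 higher and 5 lower in P-IWP2 cells, with medians of -0.07 and -0.02. The shares over all tested genes were those given above, 15.3% and 17.1% called.

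Among 20 further genes of the smooth muscle apparatus, 2 were higher and 4 lower in P-DF than in static cells on Day 16, and 4 were higher and 1 lower in P-IWP2 cells, beside 15.3% and 17.1% of all tested genes called. HSPB6, a small heat shock protein of muscle, was higher by 2.81 and 2.87 on the log2 scale (edgeR adjusted p = 0.00543 and 0.00467). DES, the muscle intermediate filament desmin, was higher by 2.01 in P-IWP2 cells (edgeR adjusted p = 0.0115), and SYNM, which binds it, by 2.28 (edgeR adjusted p = 0.00918). Both are also genes of heart muscle. ITGA8, an integrin of smooth muscle and stromal cells, was lower in P-DF cells by 6.84 and for P-IWP2 by 7.33 (edgeR adjusted p = 0.00815 and 0.00674), standing at 8.31 and 9.25 FPKM in static cells and at no more than 0.07 in passaged cells of Day 16. The 20 genes had a median log2 fold change of -0.19 for P-DF and 0.53 for P-IWP2.

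Markers of the cells that could carry smooth muscle genes went with the treatment. On Day 16 the sum over 11 fibroblast genes was 1386 to 1413 FPKM in static and 28.5 to 44.03 in passaged libraries, and 8 of the 10 tested for P-DF and 10 of 10 for P-IWP2 were called lower, beside 9.86% and 9.95% of all tested genes. The sum over 10 epicardial genes was 114 to 143 in static and 11.5 to 24.9 FPKM in passaged libraries. In each passaged library only 1 of these genes reached 1 FPKM, the keratin KRT19 at 10.85 to 23.6, beside 43.6 and 41.3 in static libraries. WT1, TBX18 and TCF21 stood at no more than 0.08 FPKM in the passaged libraries of that day. Of 7 tested mural genes, the markers of pericytes and vascular smooth muscle, PDGFRB and NOTCH3 were lower in both treatments. ABCC9, KCNJ8 and MCAM were higher in both and CSPG4 in P-IWP2 cells. Of all tested genes, 15.3% were called in P-DF (9.86% lower) and 17.1% in P-IWP2 cells (9.95% lower and 7.15% higher). RGS5, the most abundant of the 7, stood at 37.7 and 42.3 FPKM in static and 64.1 to 103 in passaged libraries of Day 16. HIGD1B, another pericyte marker, was at no more than 0.14 FPKM in any library. Cardiomyocyte genes summed to 4247 to 5455 FPKM in static and 10856 to 13754 in passaged libraries of Day 16. Abundant genes weigh most in this sum, and not all of the list followed it. MYL7 stood at 1836 and 1573 FPKM in static and 3646 to 5369 in passaged libraries, and MYH7 at 695 and 351 against 2318 to 2637. MYH6 went the other way, at 436 and 417 against 71.0 to 146 FPKM, and TNNT2 overlapped, at 74.8 and 87.8 against 78.7 to 106. On Day 16 the falls of ACTA2 in P-DF and of ACTG2 in both treatments came beside lower fibroblast and epicardial sums. The rises of CNN1, MYL9, LMOD1 and TPM2 in P-IWP2 came beside a higher cardiomyocyte sum. The P-DF libraries of Day 16 also had higher sums, 11763 and 10856 FPKM, but none of these genes was called there. CNN1, MYL9 and TPM2 lay above the static libraries in P-DF too, while LMOD1 stood at 14.2 and 9.88 FPKM against 17.7 and 12.8 in static cells. The Day 12 P-DF libraries already had fibroblast sums of 45.9 and 34.9 and epicardial sums of 21.4 and 13.9 FPKM, of which KRT19 made up 20.56 and 12.85. ACTA2 stood at 161 and 167 FPKM in them, and ACTG2 had 7 and 2 counts. P-IWP2 replicate 6 of Day 16 had a fibroblast sum of 44.03 FPKM and 207 FPKM of ACTA2. The part of these sums in the results was not tested.

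Counting without strand can give reads of overlapping genes to either. ACTA2 overlaps ACTA2-AS1 on the opposite strand, with 17 to 377 counts beside 832 to 12429 of ACTA2, and STAMBPL1, with 68 to 297. TAGLN overlaps PCSK7 (431 to 593 counts), MYH11 overlaps NDE1 (109 to 292), MYL9 overlaps DLGAP4-AS1 (5 to 51) and MYLK overlaps MYLK-AS1 (13 to 92), all on the opposite strand. NDE1 had a median of 209 counts over the 12 libraries beside 66 of MYH11, so the level of MYH11 is uncertain if strand was not used in counting, which the sources used here do not state. CNN1, ACTG2 and TPM2 overlap no other gene of the table.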

How the data were processed

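RNA of 12 libraries, 2 for each of 3 treatments on 2 days, was made into cDNA and sequenced. The labels name a SMRTbell library kit, made for long reads, while the tools named are for short reads, so the read type behind the counts and FPKM is not settled. The authors deposited 1 table with raw counts per gene and FPKM values. Per the submitters' processing notes, cutadapt 1.9.1, HISAT2 2.0.1, HTSeq 0.6.1, DESeq2 and the hg38 build were used. The strand setting is not given in the sources used here. The deposited FPKM values could be recomputed from the counts, the exon lengths and the library totals. Of 61806 genes, 61757 are in GENCODE 44, and 99.9% of these overlap it on the same chromosome and strand. Totals ran from 14885589 to 19176239 counts per library (median 16452289), so that a limit of 3 counts corresponds to 0.156 to 0.202 CPM.

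Counts were tested with edgeR 4.0.16 (quasi-likelihood F test, TMM scaling, filterByExpr, 6 group means over all 12 libraries) in R 4.3.3, with Benjamini-Hochberg adjustment over 19505 genes and a threshold of 0.05. The standard error is the absolute log2 fold change divided by the square root of F. Alternatives used DESeq2 1.42.0, limma 3.58.1 on log2(FPKM + 1), library totals, no filter, models of 1 day or treatment, a replicate block, and leaving out each library. The scripts were tested on simulated data. Figures were drawn with matplotlib 3.10.9. The 10 genes and all gene lists were chosen with earlier results of these data known. All 10 are named in each comparison. Genes of other lists are named where they were called, are relatives or regulators of the 10, or show how a list was made up.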

Additional observations from a re-analysis of the deposited data

How the results depend on the processing

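The counts of the 10 genes called depended on the alternative, and the causes were not tested. The share of all tested genes called moves with the fit too. In P-DF against NP-IWP2 cells on Day 16 it was 15.3%, and 34.1% without the Day 12 P-IWP2 replicate 5. For the other alternatives these shares are not given here, so a higher count below cannot be read as a result about the 10 genes. In P-DF against NP-IWP2 cells on Day 12, where edgeR called 0, DESeq2 called 2 and the fit without the filter 4 (0 to 2 when 1 library was left out). In P-IWP2 against NP-IWP2 cells on Day 12 the fit without the filter called 2 in place of 0 (0 to 1). On Day 16 in P-DF cells, 2 became 5 with DESeq2, 6 without the filter, 1 with limma and 6 in a model of that day alone (0 to 5). In P-IWP2 cells, 5 became 8 without the filter and 3 with limma (0 to 7). In P-IWP2 against P-DF cells, 0 became 1 without the filter on Day 12 (0 to 2), and on Day 16 it became 1 with DESeq2, 8 without the filter and 1 in the model of that day (0 to 2). Over time, 0 in NP-IWP2 cells became 2 with DESeq2, 5 without the filter and 6 in a model of that treatment (0 to 3), 3 in P-DF became 6 without the filter and 6 in that model (0 to 5), and 5 in P-IWP2 became 0 in that model (4 to 7). The interactions gave 3 for P-DF without the filter (0 to 1), and for P-IWP2 2 with DESeq2, 6 without the filter and 1 with the replicate block (0 to 4).

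Of single genes, ACTA2 from Day 12 to Day 16 in P-IWP2 cells turned from 0.32 to -0.13 with library totals, -0.72 with limma and -0.33 with the replicate block, and MYLK to -0.27 with library totals. Library totals in place of TMM moved the median of all genes by -0.49 to 0.11. When 1 library was left out, the following log2 fold changes took either sign. For P-IWP2 over time the ranges were -1.83 to 1.14 (ACTA2), -1.11 to 1.48 (ACTG2) and -0.38 to 1.26 (MYLK). For P-IWP2 against NP-IWP2 on Day 16 they were -2.40 to 0.57 (ACTA2), -0.0581 to 3.10 (MYH11), -0.26 to 0.73 (MYLK) and -0.13 to 2.17 (TAGLN), and on Day 12 -0.0865 to 0.12 (LMOD1), -0.85 to 0.29 (MYL9), -0.70 to 0.94 (MYLK), -0.82 to 0.12 (TAGLN) and -0.25 to 0.44 (TPM2). For P-DF over time they were -1.15 to 0.72 (ACTG2), -0.19 to 1.25 (MYH11) and -0.78 to 0.19 (MYLK), and for NP-IWP2 over time -0.44 to 0.14 (LMOD1), -0.18 to 0.44 (MYL9) and -0.10 to 0.52 (TPM2). For P-DF against NP-IWP2 they were -0.39 to 0.19 (LMOD1), -0.54 to 0.73 (MYH11) and -0.64 to 0.70 (TAGLN) on Day 16, and -0.89 to 0.11 (MYLK) and -0.044 to 0.66 (TAGLN) on Day 12. For P-IWP2 against P-DF on Day 16 they were -0.0151 to 3.14 (MYH11) and -0.0076 to 2.19 (TAGLN).

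Replicate numbers are shared only between days. The deviations of same-numbered libraries correlated at 0.131 for NP-IWP2, -0.0357 for P-DF and -0.0526 for P-IWP2. These values show no clear pairing, but each rests on 2 libraries per day and cannot exclude that same-numbered libraries shared a culture. With the replicate block, edgeR called 0, 4 and 5 of the 10 genes over time for NP-IWP2, P-DF and P-IWP2, and 0 (P-DF) and 1 (P-IWP2) in the interactions. The shares of all tested genes called in that fit are not given here. At these depths MYH11, MYLK and ACTG2 rest on few counts.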

Other observations

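The genes whose profile over the 12 libraries was most like the mean profile of the 10 genes, by Pearson's r of log2(FPKM + 1) among genes with a mean of at least 1 FPKM, were PICALM (r = 0.948), TUBB6 (0.926), ACTN1 (0.926), TTC9 (0.924) and SYNJ2 (0.911). ACTN1 is the actinin that links actin filaments at cell adhesions. Among the 10 genes themselves, MYL9 and TPM2 had the highest r (0.955), followed by CNN1 and TPM2 (0.935), while ACTA2 and CNN1 had the lowest (-0.422). The mean profile was highest in P-IWP2 replicate 6 of Day 16, at 1.73, followed by NP-IWP2 replicate 1 of that day, at 0.60. The r to this profile therefore leans strongly on 1 library. The libraries also share their groups and scaling, so all these values are descriptions.

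Immediate early genes are a separate class of SRF targets. Over the 9 listed, summed FPKM was 861 to 975 in static libraries on Day 12 and 1829 to 1987 on Day 16, and 1113 to 1352 in P-DF and 1200 to 1254 in P-IWP2 libraries of Day 16. From Day 12 to Day 16 in NP-IWP2 cells EGR3 and JUNB were called higher by edgeR, where 1.98% of tested genes were called in either direction. On Day 16 EGR3, FOS and JUNB were lower in P-IWP2 than in static cells, where 9.95% of tested genes were called lower.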
